A study of Mus musculus with 10 samples.

Results

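Splicing and read coverage of 7 mouse genes that act at growing microtubule ends and at the sites where those ends attach to the cell cortex are described here: Clasp1, Clasp2, Ckap5, Clip1, Clip2, Phldb1 and Phldb2. They are 7 of the 26264 gene symbols in the deposited splicing table, and every event listed under those symbols was taken, 697 of 661162 events. They comprise 244 cassette exons (exons that are either included or skipped), 189 introns, and alternative splice sites at the 3' end (158) and at the 5' end (106) of introns. The group was chosen by gene symbol with the siQk and siNT exon inclusion values of the same N2A samples in view, in which exons of Clasp1 and Ckap5 had stood out. Differences between siQk and siNT in these genes are therefore given as values without p-values, and the counts of called events are a description.

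The splicing table covers N2A cells, a mouse neuroblastoma line, transfected with 40 nM of a non-targeting siRNA pool (siNT, n = 3) or of a pool against Qk (siQk, n = 3), with RNA taken after 72 h. No genotype or engineered allele is named for these cells, both groups received siRNA, and each replicate is labelled a biological replicate of the same line. The second experiment used glutamatergic neurons differentiated in vitro from mouse embryonic stem cells, at 7 days in vitro, untreated (n = 2) or given 100 uM cycloheximide, which blocks translation, for 12 h (n = 2). The neurons are present here only as 1 combined value per condition. Qk encodes Quaking, an RNA-binding protein that regulates splicing, and the first comparison asks which exons respond when it is reduced. The second asks which microexon isoforms change in abundance when translation is blocked.

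Microtubules grow and shrink mainly at their plus ends, where a changing set of proteins gathers. CKAP5 is a polymerase that adds tubulin, the CLASP proteins slow shrinkage and favour renewed growth, and the CLIP proteins ride on growing ends. CLIP-170, the protein of Clip1, links those ends to dynein's partner dynactin. The proteins encoded by Phldb1 and Phldb2, also called LL5-alpha and LL5-beta, bind phosphoinositides of the plasma membrane and hold CLASPs at the cortex, so that plus ends are captured near adhesions. In neurons this machinery is known for its part in axon growth and growth cone steering. Several of these genes carry microexons, very short exons (3 to 27 nt here) that in many genes are used mainly in neurons.

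The exons that differ most between siQk and siNT, or between untreated and cycloheximide-treated neurons, are shown first so that their length, their neighbours and the likeness between Clasp1 and Clasp2 can be seen. Sequences are from GENCODE M21 transcripts on mm10, 5′ to 3′ on the transcribed strand. Capitals mark the exon and lower case the 15 nt of each neighbouring exon in an annotated transcript that holds it.
Clasp1 48 nt exon, chr1:118512175-118512222, plus strand: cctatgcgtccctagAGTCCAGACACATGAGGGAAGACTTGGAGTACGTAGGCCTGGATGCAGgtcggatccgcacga
Clasp1 24 nt exon, chr1:118512705-118512728, plus strand: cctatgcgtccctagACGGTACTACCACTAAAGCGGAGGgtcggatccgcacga
Clasp1 27 nt exon, chr1:118523321-118523347, plus strand: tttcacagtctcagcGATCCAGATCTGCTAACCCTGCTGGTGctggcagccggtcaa
Clasp1 108 nt exon, chr1:118531978-118532085, plus strand: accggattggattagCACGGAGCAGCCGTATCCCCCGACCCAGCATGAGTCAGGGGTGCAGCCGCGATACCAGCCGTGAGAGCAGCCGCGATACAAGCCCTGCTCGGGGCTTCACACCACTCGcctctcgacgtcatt
Clasp2 24 nt exon, chr9:113858581-113858604, plus strand: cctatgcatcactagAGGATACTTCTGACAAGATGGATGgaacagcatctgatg
Clasp2 first 27 nt exon, chr9:113862436-113862462, plus strand: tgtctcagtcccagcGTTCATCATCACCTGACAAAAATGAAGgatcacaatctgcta
Clasp2 second 27 nt exon, chr9:113865086-113865112, plus strand: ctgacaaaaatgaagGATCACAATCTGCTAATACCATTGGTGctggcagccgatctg
Ckap5 24 nt exon, chr2:91599604-91599627, plus strand: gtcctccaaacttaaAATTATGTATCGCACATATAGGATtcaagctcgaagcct
Clip1 21 nt exon, chr5:123586334-123586354, minus strand: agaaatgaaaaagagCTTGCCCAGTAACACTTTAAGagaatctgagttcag
Phldb1 45 nt exon, chr9:44698827-44698871, minus strand: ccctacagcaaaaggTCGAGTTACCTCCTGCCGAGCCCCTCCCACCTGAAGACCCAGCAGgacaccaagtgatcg
Phldb1 129 nt exon, chr9:44708394-44708522, minus strand: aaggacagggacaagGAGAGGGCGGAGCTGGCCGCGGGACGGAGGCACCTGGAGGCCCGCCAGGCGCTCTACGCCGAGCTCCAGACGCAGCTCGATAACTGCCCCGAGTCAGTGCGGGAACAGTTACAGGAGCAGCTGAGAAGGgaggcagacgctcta

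All but the Ckap5 exon are annotated as coding and hold no stop codon in the annotated frame. The exact ends of the Ckap5 exon occur only in 2 noncoding transcripts, while 4 transcripts skip it. The Clasp1 exons of 48 and 24 nt sit between the same 2 exons, and no annotated transcript holds both: 2 transcripts have the first and 3 have the second. Of the equal-length microexons of the paralogs, the Clasp1 27 nt exon and the second Clasp2 27 nt exon shared 19 of 27 letters at the same position, and the first Clasp2 27 nt exon shared 13 of 27. The Clasp1 24 nt exon at 118512705 and the Clasp2 24 nt exon at 113858581 shared 13 of 24 letters. A closer pair of 24 nt exons lies further downstream, in Clasp1 at 118541675 to 118541698 and in Clasp2 at 113878750 to 113878773, with 17 of 24 letters shared.

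Exon inclusion was measured as percent spliced in (PSI), the percentage of a gene's transcripts at that position that contain the exon, from reads over exon junctions. An exon was tested where each of the 6 samples had at least 10 reads and the mean PSI lay from 2 to 98. It was called where limma's adjusted p over all cassette exons was under 0.05 and the group means differed by at least 10 PSI points. Exon-event reads ran from 26595944 to 80481173 per sample, and the 29 tested exons had from 10 to 1272 reads in a sample, of which the 7 called exons had at least 104. Qk coverage in siQk was 13.1% of that in siNT (85.4 ± 4.70 against 11.1 ± 2.60 CPM, exon-event reads scaled to the sample total, SD, n = 3), with no overlap between the groups. Of 8 neuronal markers, 5 were above 1 CPM (Map2, Stmn2, Gap43, Elavl3 and Elavl4), Dcx and Nefm were at or near 0, and Tubb3 was not found in these events under that symbol. The summed level of that list was 1050 to 1062 in siNT and 1132 to 1257 in siQk, and its part in the exon differences was not tested. Most of that sum was Stmn2 (449 to 546 in siNT, 576 to 604 in siQk) and Gap43 (248 to 334 and 274 to 404), while Elavl3 was lower in every siQk sample (78.9 to 84.7, against 92.4 to 98.4) and Elavl4 overlapped. The 4 astrocyte and 3 immune markers summed to at most 0.367 in every sample, and the 2 endothelial markers to 5.48 to 8.94 in siNT and 9.66 to 13.5 in siQk, nearly all from Pecam1. Oligodendrocyte and fibroblast lists stayed at 4.96 or less in each sample, with Mog at 0.

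Clasp1 and Phldb1 held 6 of the 7 called exons, and Ckap5 held the other one. Of the 244 cassette exons of the 7 genes, 214 had enough reads and 29 were also within the PSI limits; 7 of these 29 were called, 6 higher and 1 lower in siQk. That is 24.1%, where 1.18% of all 12930 tested cassette exons were called (0.75% higher, 0.425% lower), and nothing is read from the contrast since it was in view when the genes were chosen. Among the 12 tested microexons of these genes 2 were called, both higher, against 7.32% of all tested microexons (6.1% higher). The groups did not overlap for 13 of the 29 exons (14.6% of all tested exons), and for 11 of 29 they also differed by at least 10 points (3.78%). The median difference was 1.42 points and the median absolute difference 4.8 points, beside 0.04 and 1.82 over all tested exons. All 7 called exons have a length that is a multiple of 3, as do 24 of the 29 tested.

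**Figure D1:**
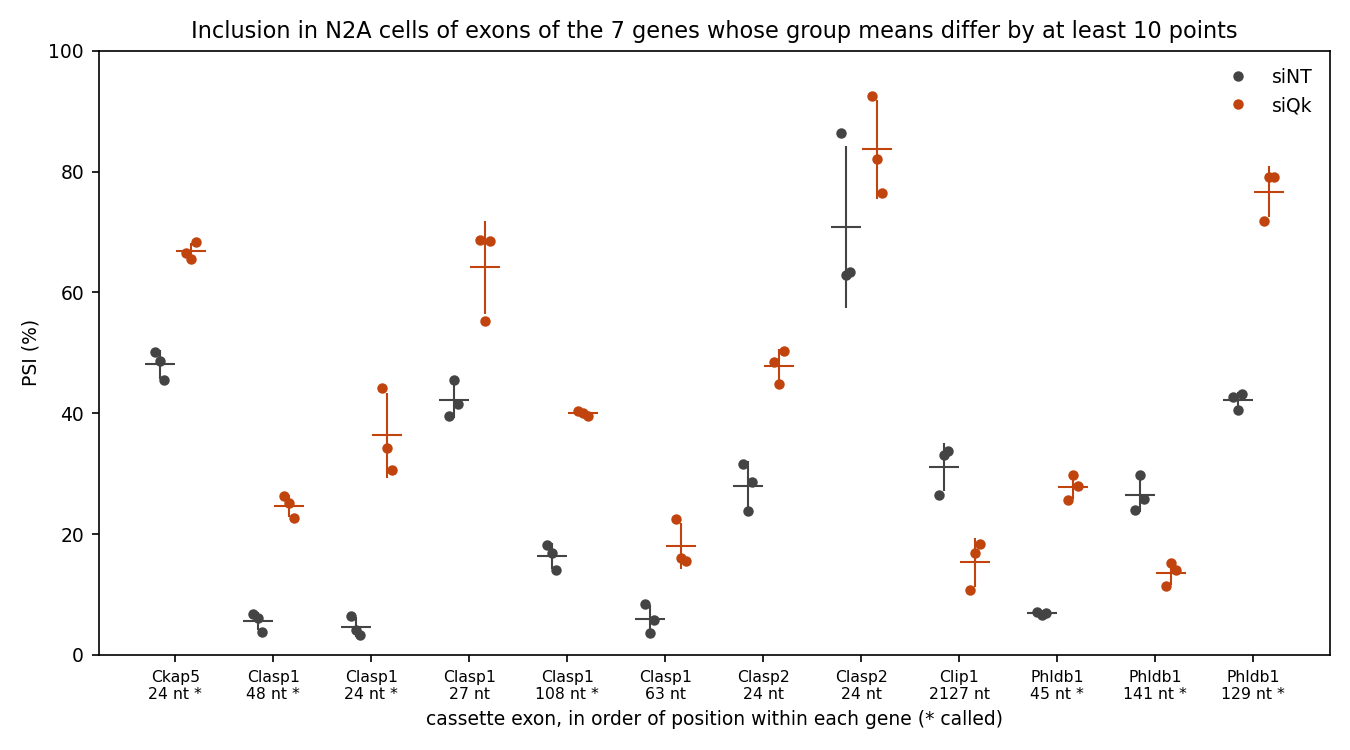
Inclusion (PSI, %) of the 12 cassette exons of these genes whose group means differ by at least 10 points, in 3 siNT (grey) and 3 siQk (orange) samples of N2A cells. Points are samples, horizontal lines are means, vertical lines are SD, and an asterisk marks a called exon; the groups overlap only for the Clasp2 24 nt exon near 71% in siNT.

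**Figure D2:**
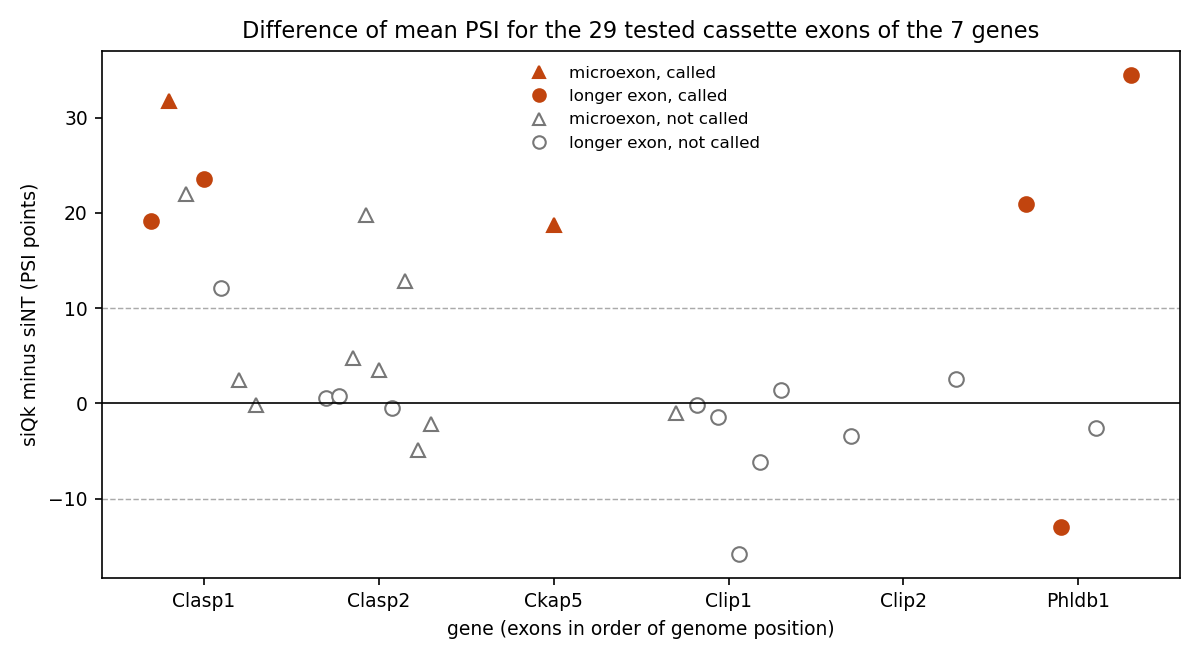
Difference of mean PSI (siQk minus siNT, in points) for the 29 tested cassette exons, by gene and in order of genome position. Filled symbols are called, triangles are microexons, and dashed lines mark 10 points in either direction; called exons lie in Clasp1, Ckap5 and Phldb1, from -13.0 to 34.5.

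Clasp1 (chr1:118389058-118612678, plus strand) had 3 called exons of 7 tested, all higher in siQk. Its 24 nt microexon (MmuEX0011499) was included at 6.44, 4.16 and 3.22% in siNT samples 1 to 3 and at 44.2, 34.3 and 30.6% in siQk samples 1 to 3. The exon was thus under 7% in every siNT sample and over 30% in every siQk sample, and the groups did not overlap. Its mean went from 4.61% ± 1.66 to 36.4% ± 7.05 (SD, n = 3), a difference of 31.8 points. The neighbouring 48 nt exon (MmuEX0011498), spliced between the same exons, was at 6.80, 6.10 and 3.86% in siNT and at 26.2, 25.1 and 22.7% in siQk. This exon, too, was low in each siNT sample and higher in each siQk sample, with a difference of 19.1 points (5.59% ± 1.54 to 24.7% ± 1.82, SD, n = 3). Since both exons share their neighbours, they share skipping reads and are not independent measurements. The 24 nt exon has no row in the neuron table and is not in the authors' neural microexon list. That table and that list hold microexons only, and the 48 nt exon is longer than a microexon.

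Further downstream in Clasp1, a 108 nt coding exon (MmuEX0011510) was at 18.2, 16.9 and 14.1% in siNT and at 40.3, 40.1 and 39.6% in siQk. The siQk samples lay within 1 point of each other and well above every siNT sample, and the exon was called with a difference of 23.6 points (16.4% ± 2.13 to 39.99% ± 0.391, SD, n = 3). The 63 nt coding exon that follows (MmuEX0011511, chr1:118536135-118536197) lies between the same flanking exons, and 2 annotated transcripts hold both. The 108 and 63 nt exons thus share skipping reads and are not independent measurements. The 63 nt exon was at 8.40, 3.64 and 5.73% in siNT and 22.5, 16.1 and 15.5% in siQk. The groups did not overlap, yet at 12.1 points it was not called. It was called without siNT replicate 1, where the difference was 13.3 points, and with all samples at a minimum of 20 reads, without the PSI filter or with a prior of 1 read.

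The Clasp1 27 nt microexon (MmuEX0011506) had an intermediate level in siNT, at 39.5, 45.5 and 41.6%. In siQk it was at 68.7, 55.2 and 68.5%, so that siQk replicate 2 lay nearer to siNT than the others. The difference of 22.0 points (42.2% ± 3.02 to 64.2% ± 7.72, SD, n = 3) was not called with all samples, and was called without siQk replicate 2, at 26.4 points. The last coding microexon tested, of 24 nt (MmuEX0011507), was at 77.3, 75.7 and 70.7% in siNT and 78.3, 77.1 and 75.4% in siQk. These groups overlapped, with a difference of 2.41 points. A 3 nt event at 118546186 to 118546188, whose ends are not annotated, was at 91.7% in siNT and 91.6% in siQk.

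In Clasp2 (chr9:113741473-113919682, plus strand), the paralog of Clasp1, 0 of 9 tested exons were called by limma on the reads, and 1 had an unadjusted p under 0.05. The largest difference was in the 24 nt microexon printed above (MmuEX0011514). It was at 31.7, 23.8 and 28.7% in siNT and at 48.5, 44.8 and 50.3% in siQk. The groups did not overlap, and the mean went from 28.0% ± 3.99 to 47.9% ± 2.79 (SD, n = 3), 19.8 points higher in siQk. It was called only when limma was run on the PSI values in place of the reads. The adjoining 18 nt microexon (MmuEX0011515, chr9:113860120-113860137), which all 5 annotated transcripts with the 24 nt exon also hold, was far less used: 14.2, 13.0 and 18.1% in siNT and 24.5, 14.2 and 17.3% in siQk. Its groups overlapped, with siQk replicate 1 alone above the rest and a difference of 3.53 points. The difference between these neighbouring exons was not tested.

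The 24 nt microexon of Clasp2 that resembles the Clasp1 24 nt exon at 118541675 (MmuEX0011532) varied strongly among siNT samples, at 86.3, 62.9 and 63.3%, against 92.5, 82.1 and 76.4% in siQk. The groups overlapped because siNT replicate 1 lay above 2 of the siQk samples (70.8% ± 13.4 to 83.7% ± 8.16, SD, n = 3, difference 12.8 points). A 17 nt microexon (MmuEX0011524, chr9:113841159-113841175), the only tested microexon of these genes whose length is not a multiple of 3, was at 5.31, 0 and 9.46% in siNT and 6.78, 11.4 and 10.96% in siQk. The 3 nt exon AGA (MmuEX0011521, chr9:113887045-113887047) had only 10 to 38 reads in a sample and was at 13.0, 0 and 0% in siNT and 0, 5.26 and 1.33% in siQk, so no difference was detectable at this depth. The other 4 tested exons of Clasp2 differed by -4.94 to 0.82 points.

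Ckap5 (chr2:91526762-91620664, plus strand) encodes the tubulin polymerase of the group and had a single variable exon. Of its 47 cassette exon events all had enough reads, but only the 24 nt microexon (MmuEX0011484) was within the PSI limits. It was at 50.1, 48.6 and 45.5% in siNT and at 66.6, 65.5 and 68.3% in siQk, with at least 375 reads in each sample. All siQk samples were above all siNT samples, and the exon was called with a difference of 18.7 points (48.1% ± 2.33 to 66.8% ± 1.46, SD, n = 3). The call was lost without siNT replicate 3 (17.4 points) and without siQk replicate 3 (17.9 points), the deepest libraries of their groups.

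The CLIP genes, which encode the growing-end trackers CLIP-170 (Clip1) and CLIP-115 (Clip2), had 0 called exons of 8 tested with limma, on the reads or on the PSI values, and 2 with an unadjusted p under 0.05. In Clip1 (chr5:123577795-123684618, minus strand), a 2127 nt event (MmuEX0011694, chr5:123613068-123615194) was at 26.5, 33.1 and 33.8% in siNT and 10.8, 16.8 and 18.4% in siQk. Each siQk sample was below each siNT sample, with a difference of -15.8 points (31.1% ± 4.002 to 15.3% ± 4.012, SD, n = 3), and the call was missed. It was called without the PSI filter, with its difference unchanged. The ends of this event are in no annotated transcript. A 117 nt coding exon (MmuEX0011695, chr5:123627294-123627410) was near-constitutive in siNT, at 97.7, 97.5 and 95.3%, and at 92.7, 87.2 and 92.2% in siQk, without overlap. The 6 nt microexon CAAATG (MmuEX0011693, chr5:123581592-123581597) was at 94.6% ± 1.23 in siNT and 93.6% ± 2.11 in siQk (SD, n = 3), with overlapping groups. In Clip2 (chr5:134489383-134552434, minus strand), the larger of 2 differences was in a 105 nt coding exon (MmuEX0011703, chr5:134504734-134504838), at 20.6, 20 and 30.2% in siNT and 13.6, 23.9 and 23.2% in siQk. Those groups overlapped, with a difference of -3.37 points.

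Phldb1 (chr9:44686304-44735198, minus strand), which encodes the cortical anchor LL5-alpha, held the largest difference among the 7 genes. Its 129 nt coding exon (MmuEX0034865) was at 42.6, 40.6 and 43.3% in siNT and 71.8, 79.0 and 79.1% in siQk. Inclusion was above 70% in every siQk sample and below 45% in every siNT sample, 34.5 points apart (42.2% ± 1.38 to 76.7% ± 4.18, SD, n = 3), and the exon was called. A 45 nt coding exon (MmuEX0034864), also called, was at 7.12, 6.60 and 6.96% in siNT and 25.7, 29.8 and 28.0% in siQk. It was rare and nearly equal among siNT samples and about 4 times as frequent in siQk, a difference of 20.9 points (6.89% ± 0.266 to 27.8% ± 2.07, SD, n = 3). Both are longer than a microexon, and the neuron table holds microexons only.

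Phldb1 also held the single called exon that was lower in siQk. The 141 nt coding exon (MmuEX0034867, chr9:44700946-44701086) was at 24.1, 29.8 and 25.7% in siNT and 11.4, 15.2 and 14% in siQk. All siQk samples were below all siNT samples, 13.0 points lower on average (26.5% ± 2.93 to 13.5% ± 1.94, SD, n = 3; the difference was -13.0). This call was lost on leaving out any one of siNT replicates 1, 2 and 3 or siQk replicates 2 and 3, with differences from -14.2 to -11.4 points, and was kept only without siQk replicate 1. The 168 nt exon beside it (MmuEX0034866, chr9:44701503-44701670), between the same flanking exons, was at 3.62, 4.58 and 4.37% in siNT and 1.54, 1.32 and 2.06% in siQk. It was rare in both groups and lower in every siQk sample, by 2.55 points on average (difference -2.55). The 141 and 168 nt exons share skipping reads and are not independent measurements.

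Phldb2 (chr16:45746243-45953598, minus strand), the gene of LL5-beta, could not be assessed in these cells. None of its 58 events reached 10 reads in every sample, and no event had more than 1 read in any sample. Its paralog Phldb1 was covered at 205 to 242 CPM.

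Introns and alternative splice sites of the 7 genes gave no called event. By limma 0 of 12 tested introns, 0 of 2 alternative 3' sites and 0 of 12 alternative 5' sites were called, where 0.113%, 0.101% and 0.107% of all such events were. At an unadjusted p under 0.05 there were 5 introns and 0 sites of either kind, and limma run on the PSI values also called 0 in each class. The 2882 nt intron of Phldb1 that contains the 129 nt exon (MmuINT0119110, chr9:44708041-44710922) was retained at 6.43, 7.58 and 5.39% in siNT and 13.04, 24.4 and 14.04% in siQk. Its groups did not overlap, with siQk replicate 2 the highest, and it was called without siQk replicate 1, at 12.7 points. It spans the 129 nt exon and so is not separate from that exon's difference. The other 11 introns differed by -5.10 to 1.86 points, the 5' sites by -3.54 to 3.46 and the 3' sites by -3.32 to 0.56. Among these introns, groups also did not overlap for the one that spans the Clip1 2127 nt event (5.66% in siNT, 2.33% in siQk). Nor did they for the Phldb1 introns that span the 168 nt exon (6.79 and 2.44%) and the 45 nt exon (1.40 and 3.26%). These introns, too, are not separate from the exons they span.

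With all samples, coverage of none of the genes was called different between groups; without siQk replicate 1, 1 gene was called (Clip2). Exon-event reads per gene were summed and given as CPM, as a stand-in for expression; levels are not per length and are not compared between genes, and in bulk RNA fewer cells of a kind and less RNA per cell cannot be told apart. Ckap5 was at 779, 758 and 797 CPM in siNT and 670, 688 and 672 in siQk, lower in all 3 siQk samples (log2 difference -0.20). Clip2 was at 61.0, 58.4 and 72.9 in siNT and 70.9, 88.5 and 87.0 in siQk, where siQk replicate 1 lay below siNT replicate 3 (log2 difference 0.35). Clasp1 was at 252, 213 and 236 in siNT and 225, 207 and 191 in siQk, and Clasp2 at 223, 207 and 213 against 207, 183 and 172. Both groups overlapped for each of these 2 genes, at log2 differences of -0.17 and -0.20. Clip1 and Phldb1 overlapped as well, at 0.05 and 0.04. By limma 0 of these 6 genes were called, where 4.54% of 10851 genes were, also with TMM scaling, and 3 had an unadjusted p under 0.05. The exon differences in Clasp1 and Phldb1 thus stood beside gene coverage in siQk of 88.9% and 102.8% of that in siNT.

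**Figure D3:**
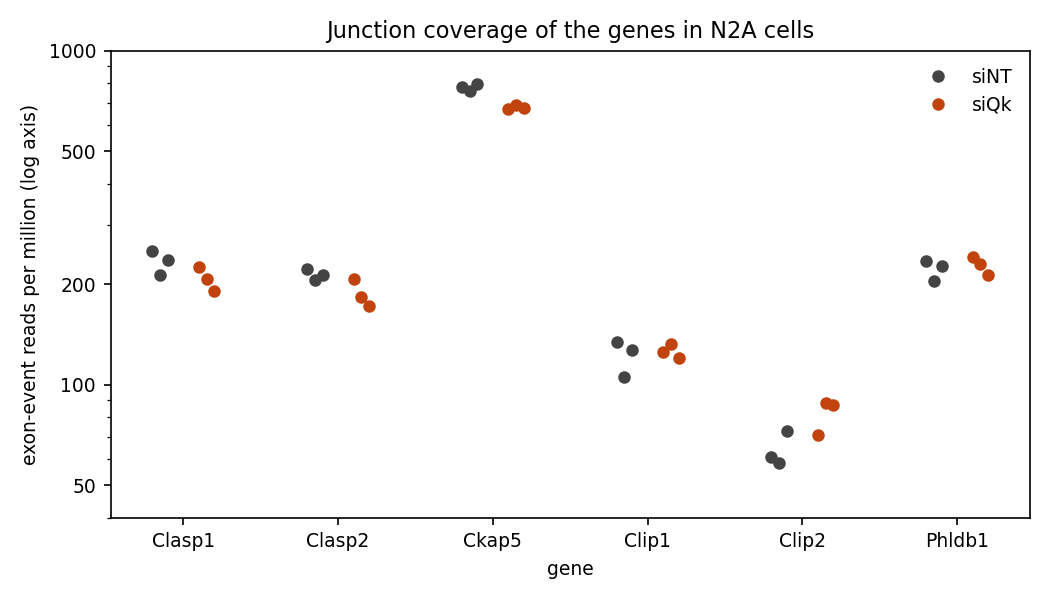
Exon-event coverage (CPM) for 6 of the genes in 3 siNT (grey) and 3 siQk (orange) samples of N2A cells, on a log axis; each point is 1 sample. Ckap5 is lower in each siQk sample (670 to 688, against 758 to 797), the other 5 genes overlap between groups, and Phldb2 is left out because it had at most 1 read in an event.

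The authors' list of neural microexons, whose classes rest on the same 6 N2A samples, holds 6 microexons of these genes. Over the whole list 41 microexons, 18.1%, are classed as repressed by Qk, and 3 of these 41 are here. Nothing is read from the contrast with the list, since the genes were chosen with values of these samples in view. In the authors' deposited table the Ckap5 24 nt exon is at 48.2% in siNT and 67.0% in siQk. There the Clasp1 27 nt exon is at 41.7 and 66.0%, and the Clasp2 24 nt exon at 113878750 at 65.4 and 81.9%. The limma call above was met by the Ckap5 exon alone, and the Clasp2 exon has overlapping samples. The list classes the other 3 as without change, namely the Clasp1 24 nt exon at 118541675, the Clasp2 18 nt exon and the Clip1 6 nt exon. For none of the 6 does the authors' deposited table give a side for the ACTAAY motif, the sequence that Quaking is known to bind. The Clasp2 24 nt exon at 113858581, 19.8 points higher in siQk, is not in that list.

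Untreated neurons included 7 of 13 microexons of these genes at 90% or more, and 3 others were lower with cycloheximide. In the authors' deposited table of 2469 microexons, 13 lie in Clasp1, Clasp2, Ckap5 and Clip1, and none in Clip2, Phldb1 or Phldb2. A change was counted at 10 PSI points or more with a probability of at least 0.9, which 232 of the 2469 microexons met, 9.40% (7.17% lower, 2.23% higher). Of the 13, 4 met it, 3 lower and 1 higher with cycloheximide. The table does not state which column is untreated; the order of conditions in its name was followed, and with the columns turned these would be 1 lower and 3 higher, and every neuron value given for a condition would change places with the other. These are combined values of 2 samples per condition with unknown depth, so they carry no error and no test across samples.

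In the authors' deposited table the 2 adjacent 27 nt microexons of Clasp2 went from 82.0 to 49.2% and from 82.8 to 50.7% (probability 1 for each). They are printed above one after the other, the end of the first being the left neighbour of the second, and 1 annotated transcript holds both. In N2A cells the pair was all but absent. The first was at 0.20, 0.70 and 0.65% in siNT and 0.72, 0 and 0.57% in siQk (MmuEX0011526). The second had 0 inclusion reads in all 6 samples (MmuEX0011527), with 148 to 536 reads each, which allows a PSI of up to 0.56 to 2.03% depending on the sample, for counting error only. The Clasp1 27 nt exon, which resembles the second of them, is at 97.8% in untreated neurons and 95.8% with cycloheximide in the authors' deposited table (probability 0.626), beside 42.2% in siNT.

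The 21 nt microexon of Clip1 had neuron values near those of the Clasp2 pair. It is at 79.5% in untreated neurons and 48.7% with cycloheximide in the authors' deposited table (probability 1). In N2A cells it was at 4.27, 0 and 1.42% in siNT and 4.85, 0 and 0% in siQk (MmuEX0011698), and no sample was above 5%. The Clip1 6 nt microexon is at 90.6 and 95.5% in neurons (probability 0.676), close to its level in N2A cells.

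The Ckap5 24 nt microexon was the one that was higher with cycloheximide, at 37.7% in untreated and 51.0% in treated neurons in the authors' deposited table (probability 1). It was also higher in siQk than in siNT N2A cells, 66.8% against 48.1%. Of the 4 microexons that changed with cycloheximide, only the Ckap5 exon was tested in N2A cells, where it was called. The other 3 had a mean PSI under 2 there and so could not be called. The criteria for a change also differed between the experiments.

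Of the remaining microexons, 3 in Clasp2 are at 99.9% in both conditions in the authors' deposited table. They are the 24 nt exon at 113858581, the 18 nt exon and the 24 nt exon at 113878750, whose siNT means in N2A cells were 28.0, 15.1 and 70.8%. The 18 nt exon thus has the widest gap between neurons and siNT among the Clasp2 exons, 84.8 points, with 53 to 172 reads in N2A samples. The Clasp1 24 nt exon at 118541675 is at 96.5% in untreated and 90.6% in treated neurons in the authors' deposited table (probability 0.976), a difference of -5.92 points that is under the limit of 10. A 3 nt exon AGA of Clasp1 (chr1:118547656-118547658) is at 99.7 and 99.3% there (probability 0.754), while its counterpart in Clasp2, the same 3 letters between neighbours that share 24 of 30 letters, is at 12.5 and 17.5% (probability 0.905). The unannotated 3 nt event of Clasp2 at 113884913, at 92.7% in siNT N2A cells, has no neuron value. The same holds for the unannotated 3 nt event of Clasp1 at 118546186, at 91.7% in siNT. The Clasp1 AGA exon, in turn, has no N2A value. The AGA values alone thus do not show how often Clasp2 includes a 3 nt exon there, or how Clasp1 and Clasp2 compare. The Clasp2 17 nt exon is at 0.374 and 1.89% (probability 0.967). N2A and neuron values come from different tables in different layouts, and their differences were not tested.

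**Figure D4:**
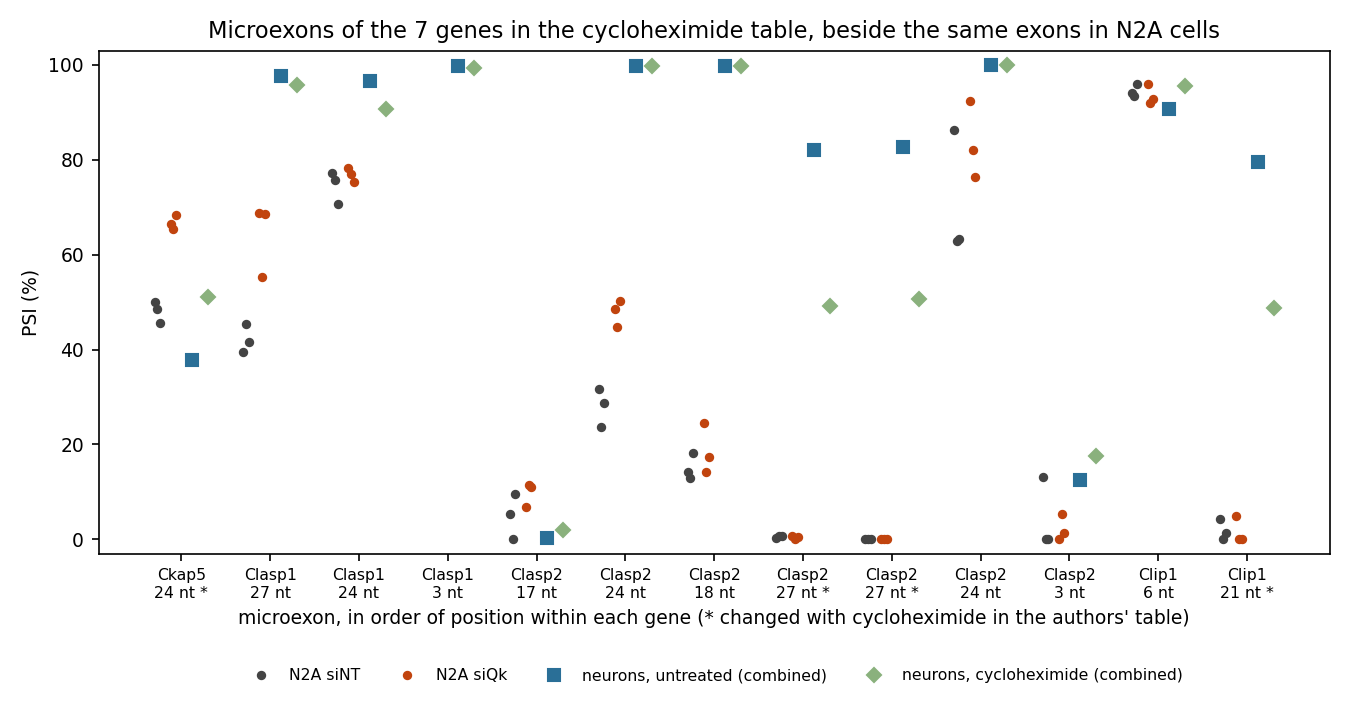
Inclusion (PSI, %) of the 13 microexons of these genes in the neuron table: 3 siNT and 3 siQk samples of N2A cells (small points, 12 microexons) beside the combined values of untreated (squares) and cycloheximide-treated neurons (diamonds). Asterisks mark the 4 that changed with cycloheximide in the authors' table: both Clasp2 27 nt exons and the Clip1 21 nt exon are lower, at 48.7 to 50.7% from 79.5 to 82.8%, and the Ckap5 exon is higher at 51.0%.

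Genes that work with these 7 were examined through 2 lists. Their genes were taken from general knowledge but with results of these samples known, so the same holds as for the 7 genes: values and counts are a description, no p-value is given, and nothing is read from the shares called. Of 26 other plus-end genes, 16 had a tested cassette exon, and 4 of 35 exons were called, 2 higher and 2 lower in siQk (11.4%, against 1.18% of all tested exons). The median difference was 0.74 points and the median absolute difference 3.20. Dst, a linker of microtubules to other filaments, held both directions. Its 111 nt coding exon (chr1:34303421-34303531) was at 60.0, 53.2 and 59.1% in siNT and 10.99, 12.7 and 12.5% in siQk, and fell by 45.4 points. Its 18 nt coding exon (chr1:34296742-34296759) rose from 60.3% ± 2.86 to 89.99% ± 2.70 (SD, n = 3).

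Stim1, a calcium sensor of the endoplasmic reticulum that follows growing plus ends, has a 93 nt exon (chr7:102428774-102428866). It is annotated as coding in 1 transcript, and 3 transcripts skip it. Unlike the coding exons printed above, it held a stop codon when read from that transcript's first annotated coding base. Its reading frame was not checked further. This exon was at 28.7, 28.9 and 30.7% in siNT and 0, 2.67 and 2.45% in siQk, and fell by 27.7 points. In Dctn1, the dynactin subunit that CLIP-170 recruits, a 15 nt microexon (chr6:83197319-83197333) was at 41.0, 32.1 and 31.6% in siNT and 51.8, 55.2 and 58.8% in siQk, a difference of 20.3 points. The Dctn1 call was lost without siNT replicate 2 (19.0 points), siNT replicate 3 (18.7), siQk replicate 2 (20.4) or siQk replicate 3 (18.6), and also with limma on the PSI values.

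Of 10 genes of the cortical complex around the LL5 proteins, 5 had a tested exon, and 3 of 28 exons were called, all higher in siQk (10.7%). The median difference was 1.495 points and the median absolute difference 4.09. The calls lay in Ppfia1 and Ppfibp1, whose proteins, liprin-alpha-1 and liprin-beta-1, are known to form cortical platforms with LL5-beta. Phldb2, the gene of LL5-beta, had at most 1 read in an event in these cells. In Ppfia1 a 27 nt exon (chr7:144488691-144488717) rose from 20.1% ± 1.28 to 73.1% ± 3.08 (SD, n = 3), and the 63 nt exon next to it (chr7:144489197-144489259) rose from 33.3% ± 1.74 to 63.6% ± 1.15. They are exons 24 and 23 of the same annotated transcript, so they may share reads and are not taken as independent measurements. In Ppfibp1 a 33 nt exon (chr6:146999662-146999694) was at 17.6, 11.7 and 13.97% in siNT and 38.4, 39.5 and 40.3% in siQk, with no overlap.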

How the data were processed

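The 7 genes and the 2 pathway lists were chosen with earlier results of these data known. Per the file headers, the authors deposited a percent spliced in for each event and N2A sample, in the layout of a vast-tools table, and beside it a text cell (another kind of value) from which the inclusion and exclusion reads of the event were taken. The authors' neural microexon list gives PSI per group as a fraction with replicates combined, and its difference score was used only for its sign. The authors' neuron table, in the layout of a Whippet table, gives PSI as a fraction with replicates combined, and a probability score of a difference; its deposited entropy score was not used. Which PSI column is untreated is not stated in that table; the first was used, following the order of conditions in the table's name. Builds were mm10, per the submitters' processing notes; the aligner and software are not given in the sources used here. The labels call the replicates biological and say nothing more, so p-values measure only the spread between these samples.

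With 0.5 added to inclusion and to exclusion reads, their log2 ratio was compared by limma 3.58.1 in R 4.3.3 (robust, with a variance trend on the sampling variance, two-sided), with Benjamini-Hochberg adjustment within each event class and no covariate. For coverage, reads of a gene's exon events were summed, so that a read can count more than once, scaled to CPM, and log2(CPM + 0.5) entered limma with a mean-variance trend, for genes averaging 20 or more reads. This scale understates the fold change of low genes. The scripts were tested on simulated data. Named are all exons of the 7 genes in the neural list or the neuron table, tested exons that were called or differed by at least 5 points, each gene's largest difference, and called exons of the lists. The introns described one by one and the unannotated 3 nt events of Clasp1 and Clasp2 were named after their values were seen. Alternatives were other read minimums and priors, no PSI filter, limma on the PSI values, a replicate block, other scalings of coverage and leaving out each sample. Reads that are PCR copies were not removed by molecular tags, so floors cover counting error only (3 reads of the total). Intron and protein sequences were not analysed here.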

Additional observations from a re-analysis of the deposited data

How the results depend on the processing

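Of the 7 genes, 7 cassette exons were called as reported, 8 with a minimum of 20 reads, with a prior of 1 read or on the PSI values, and 9 without the PSI filter; leaving out one sample gave 5 to 7. For the 19 exons with their own values, no alternative reversed a difference. The calls of the Clasp1 exons of 24, 48 and 108 nt and of the Phldb1 exons of 45 and 129 nt were kept under all 11 alternatives. Introns gave 0 calls except without siQk replicate 1, which gave 1, so leaving out one sample gave 0 to 1; alternative sites gave 0, and with a minimum of 20 reads no 3' site remained. Gene coverage gave 0 calls except 2 with a replicate block (Ckap5 and Clip2), and 0 to 1 on leaving out one sample (Clip2 without siQk replicate 1). The plus-end list gave 3 to 5 called exons and the cortical list 3 to 4. For the neurons, a probability of 0.95 also gave 4 of the 13 microexons, and a limit of 5 points gave 6. Samples with the same replicate number deviated together by correlations of 0.139, 0.0193 and 0.116, so they were treated as sharing only a number, and siQk replicate 2 correlated better with siNT replicate 3 (0.0451) than with its own number, unlike the others. With a replicate block, 9 cassette exons were called; the Clasp1 63 nt and Clip1 2127 nt exons were added, each with its difference unchanged at 12.1 and -15.8 points, and the Dctn1 15 nt call was lost (difference unchanged at 20.3 points). The depth of siQk replicate 2 (26595944 reads) was the lowest and limits rare exons most.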
